A study of Mus musculus with 4 samples.

Results

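The genes described here encode the proteins of the cytosolic ribosome. They were chosen by symbol among the 32285 genes of the deposited count matrices: every gene named Rpl or Rps followed by a digit, plus Rplp0, Rplp1, Rplp2 and Rpsa, without the Rps6k kinases and the pseudogene features. This gave 86 genes, 52 with large subunit names and 34 with small subunit names. At least 1 UMI (unique molecular identifier, 1 per captured RNA molecule) was counted for 84 of them, and Rpl10l and Rpl39l were at 0 in all 4 capture frames. The name rule also takes in relatives that are not ribosome subunits themselves, such as Rps19bp1, which encodes a partner of Rps19.

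The samples were 4 Visium capture frames, titled as biological replicates 1 to 4, with cryosections of fresh frozen posterior eyes of C57BL/6J mice on a grid of barcoded spots. The design names an AAV2/2 vector for Wif1 with GFP, CMV-Wif1-HA-IRES-GFP, another without it, CMV-Wif1-HA, and the control vector CMV-IRES-GFP, with a Ctrl group and groups at 2 weeks and at 4 weeks. Treatment is given as Naive+AAV2/2 for each of the 4 frames, and neither age nor animal is named, so no treatment was compared and the frames were taken as replicates of 1 group. Every p-value therefore concerns a difference between regions over these frames. In the gene tests the spread is estimated with information shared across genes, so it is not 1 gene's own spread between frames alone. The spread between frames may be technical, or may hold vector or time, which are not given per frame. The labels give retina as the tissue and nuclear RNA as the molecule.

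A ribosome has a large and a small subunit, each built from ribosomal RNA and a fixed set of proteins, with a single gene expressed for most of them. The acidic proteins Rplp0, Rplp1 and Rplp2 form the stalk that recruits translation factors. Free Rpl5 and Rpl11 bind Mdm2 and so link ribosome assembly to p53, Rps6 is phosphorylated by kinases of the mTOR pathway, Rps27a is made as a fusion with ubiquitin, and Rpsa is also known as a laminin receptor. A few members have paralogs with restricted expression, such as Rpl3l in skeletal and heart muscle.

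The promoters of the members whose levels the results turn on are shown from 60 bases before to 10 bases after the transcript start of their window, 5′ to 3′ on the strand of the gene. They come from RefSeq on GRCm38.p6, and capitals mark CGGAAG or its reverse CTTCCG, the core of an Ets family motif, and CTTTCC or its reverse GGAAAG. Rpl4 and Rpl23 hold the most UMIs, Rpl34 had a CV of 37.0% between frames, Rpl10a differed most between layers of the retina, and Rplp0 and Rps9 had the largest folds in the outer coat. Of the 2 windows listed for Rpl34 and for Rpl10a, the more upstream one is printed.
Rpl4: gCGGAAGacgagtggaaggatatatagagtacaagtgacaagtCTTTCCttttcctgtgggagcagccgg
Rpl23: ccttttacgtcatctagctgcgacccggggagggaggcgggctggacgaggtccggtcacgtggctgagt
Rpl34: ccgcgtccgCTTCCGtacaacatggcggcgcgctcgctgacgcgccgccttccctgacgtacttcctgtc
Rpl10a: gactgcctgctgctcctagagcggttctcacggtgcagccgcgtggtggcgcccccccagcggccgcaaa
Rplp0: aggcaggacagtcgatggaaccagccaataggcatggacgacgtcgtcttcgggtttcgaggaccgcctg
Rps9: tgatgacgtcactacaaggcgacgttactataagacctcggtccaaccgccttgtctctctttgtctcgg

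The Rpl4 stretch lies at chr9:64173327-64173396 on the plus strand and the Rpl23 stretch at chr11:97782430-97782499 on the minus strand. The Rpl34 stretch lies at chr3:130730389-130730458 on the minus strand and the Rpl10a stretch at chr17:28328411-28328480 on the plus strand. The Rplp0 stretch lies at chr5:115559407-115559476 and the Rps9 stretch at chr7:3703981-3704050, both on the plus strand. The Rps9 stretch lies inside the gene as annotated from 3703954 to 3706897, since its window belongs to a later transcript start. Of these 6 stretches, those of Rpl4 and Rpl34 hold a marked motif. RefSeq windows from 250 bases before to 50 after a start were given for 66 of the 86 members, with 78 windows in all. CGGAAG or its reverse was in 47 of the 78 windows (60.3%), against 16.9% of 32851 windows of all genes. CTTTCC or its reverse was in 40 (51.3%), against 26.6%, and TATAAA or its reverse in 7 (8.97%), against 13.6%. These shares describe letters in the windows and were not set against any measured level.

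The frames held 1056 to 1243 spots over tissue and 674029 to 1066633 UMIs, with median UMIs per spot of 430 to 630.5. Any 2 frames shared 220 to 824 spot barcodes, as frames are printed with one barcode set. Regions were drawn by clustering spots on 165 marker genes of 11 tissue classes. Markers outside the labelled retina were present. In their own regions 15 of 16 muscle, 11 of 15 keratin epithelium and 12 of 13 myelin markers were detected. Detection alone does not set these regions apart. Neural retina also had 15 of 16 muscle and 9 of 13 myelin markers, and the outer coat 11 of 15 epithelium markers. Summed CPM (UMIs scaled to a region's total) lay further apart. The muscle list had 20983 to 37130 in muscle and 131 to 208 in neural retina. The epithelium list had 6362 to 15516 in epithelium and 59.1 to 312 in the coat. The myelin list had 112727 to 235389 in myelin and 77.9 to 431 in neural retina. The muscle list was at 0 in the myelin region. Regions were drawn on these markers, so this is no separate check. The myelin region stands for optic nerve here and held no spot in frame 1. A spot covers several cells, so fewer cells of a type and less RNA per cell cannot be told apart in any value below.

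Ribosomal protein genes gave 272632 of 3522010 UMIs, a share of 7.74%. By frame the share was 8.13%, 7.89%, 7.89% and 6.79%, so frame 4 stood lowest. Frame 4 also had the fewest UMIs and the largest share of Gm42418 and AY036118, features that overlap ribosomal RNA repeats, with 6.94% against 0.878%, 1.92% and 1.44% in frames 1 to 3. With these 2 features left out of the total, the shares were 8.20%, 8.05%, 8.0% and 7.30%, and frame 4 was still the lowest.

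Rpl4 and Rpl23, both of the large subunit, were far above the rest. Rpl4 had 20981, 24785, 21190 and 13457 UMIs in frames 1 to 4, which placed it first among all genes. Rpl23 had 14373, 16968, 16051 and 10336 UMIs and ranked 3 among all genes. Together they held 50.7% of the ribosomal protein UMIs. Levels are given as CPM, a gene's UMIs scaled to the total of the frame or region and not divided by gene length. Rpl4 stood at 23419, 23237, 23931 and 19965 CPM, and Rpl23 at 16043, 15908, 18127 and 15335 CPM. Frame 4 was lowest for both, and frame 3 highest.

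The next members were Rpl8 with 3681, 4371, 4025 and 2628 UMIs, and Rpl5, which carries the small RNA of the large subunit, with 3554, 3675, 3408 and 2498 UMIs. Rpl29 followed with 2891, 3092, 2889 and 1592 UMIs. Rpl37 and Rpl34, named here after their values were seen, had 10334 and 7303 UMIs over the 4 frames. These 7 genes held 71.2% of the ribosomal protein UMIs, and the other 77 detected members had between 5 and 3896. The median over the 84 detected members was 943 UMIs. Without Rpl4 and Rpl23, large subunit names summed to 95971 UMIs and small subunit names to 38520. No small subunit gene was among the 7; the highest was Rps15, with 3896 UMIs, also named after its value was seen.

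**Figure D1:**
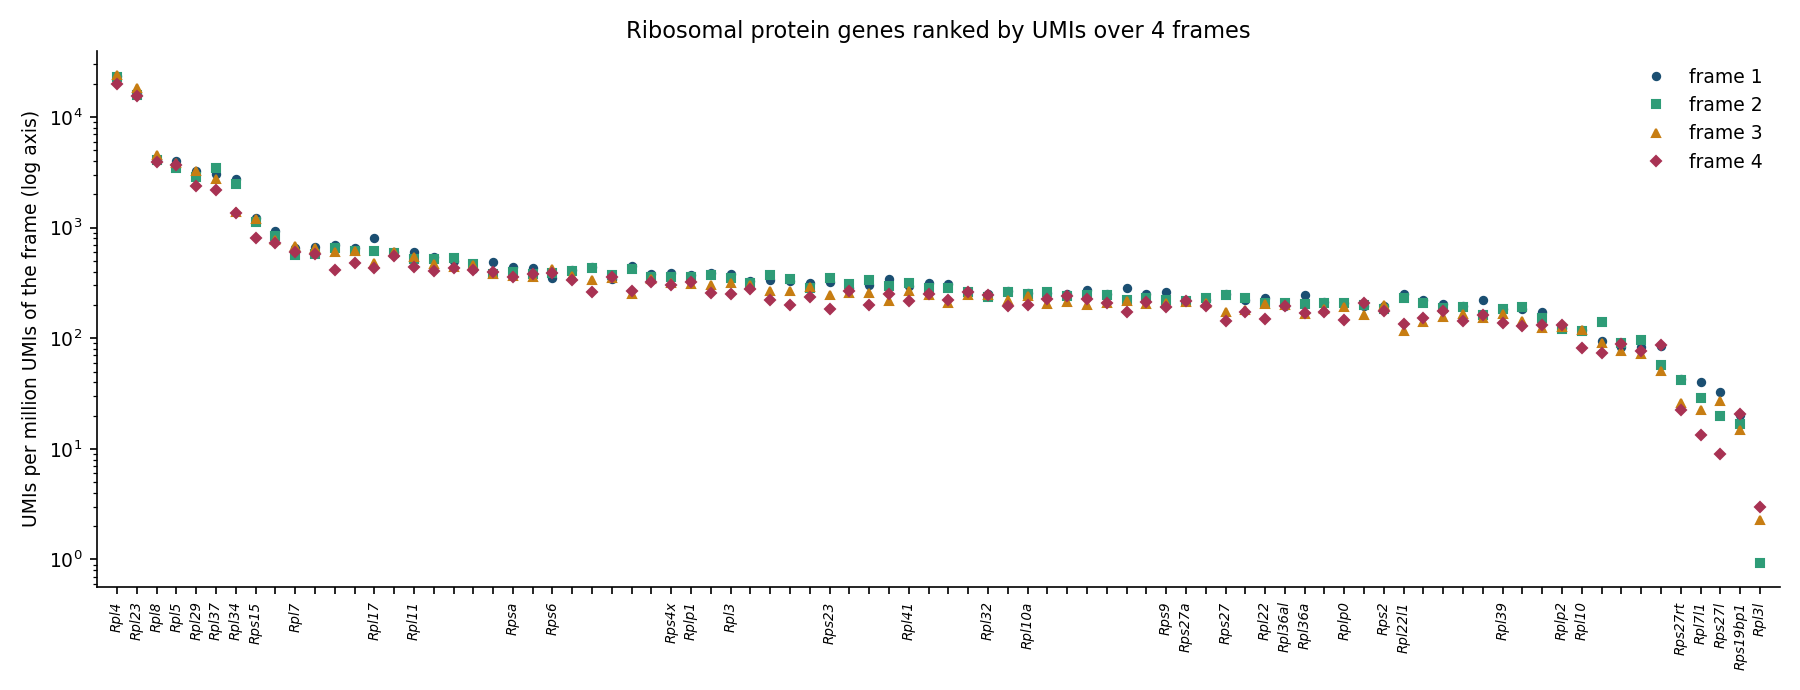
CPM of each frame (log axis) for the 84 detected ribosomal protein genes ordered by their total, 1 point per frame, with the genes named in the text labelled. Rpl4 lies between 19965 and 23931 and Rpl23 between 15335 and 18127, apart from the other members, and Rpl3l, with 0 UMIs in frame 1, has no point for that frame.

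At the low end, Rpl3l had 5 UMIs in all and Rps19bp1 had 18, 18, 13 and 14. Rps27l, a relative of Rps27, had 29, 21, 24 and 6 UMIs. Rpl7l1, a relative of Rpl7, had 36, 31, 20 and 9, and Rps27rt, a near copy of Rps27, had 38, 45, 23 and 15. Of 5 features annotated as pseudogenes of these genes, Rpl9-ps6 had 164 UMIs, Rpl10-ps3 had 73, Rpl36a-ps1 had 50, and the other 2 had 0. Whether reads that match several copies were kept is not given in the sources used here, so the split between near-identical copies such as Rps27 and Rps27rt is uncertain.

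Levels were compared between frames over all spots. The coefficient of variation (CV) of CPM over the 4 frames had a median of 12.4% over the 80 members with at least 100 UMIs, against 18.5% over 4785 other genes with at least 100 UMIs. The members' CVs ran from 1.60% to 37.1%, with 16 above 20% and 3 above 30%. The count above 20% was 10 without frame 4, 24 without frame 2 and 9 when levels were taken as shares of ribosomal protein UMIs. A CV also carries counting error, which is smaller for genes with more UMIs. Of the 80 members, 50 (62.5%) were lowest in frame 4, against 35.7% of the other genes, and 49 were highest in frame 1 (61.2%), against 31.0% of the other genes.

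Among these 80 members Rpl22l1, a paralog of Rpl22, had the highest CV, with 250, 230, 115 and 134 CPM from 224, 245, 102 and 90 UMIs. Rpl34, of the large subunit, came next with 2780, 2505, 1385 and 1356 CPM, a CV of 37.0% from 7303 UMIs. Rps27rt had 42.4, 42.2, 26.0 and 22.3 CPM. All 3 were higher in frames 1 and 2 than in frames 3 and 4. The lowest CV of the 80 was that of Rps27a, with 220, 219, 212 and 218 CPM from 197, 234, 188 and 147 UMIs. Rpl36al (195, 206, 201 and 194 CPM) and Rpl32 (252, 236, 247 and 248 CPM) had CVs of 2.77%. At the counts of these genes, the usual counting error is larger than such CVs. They therefore do not show that these genes were steadier than others.

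**Figure D2:**
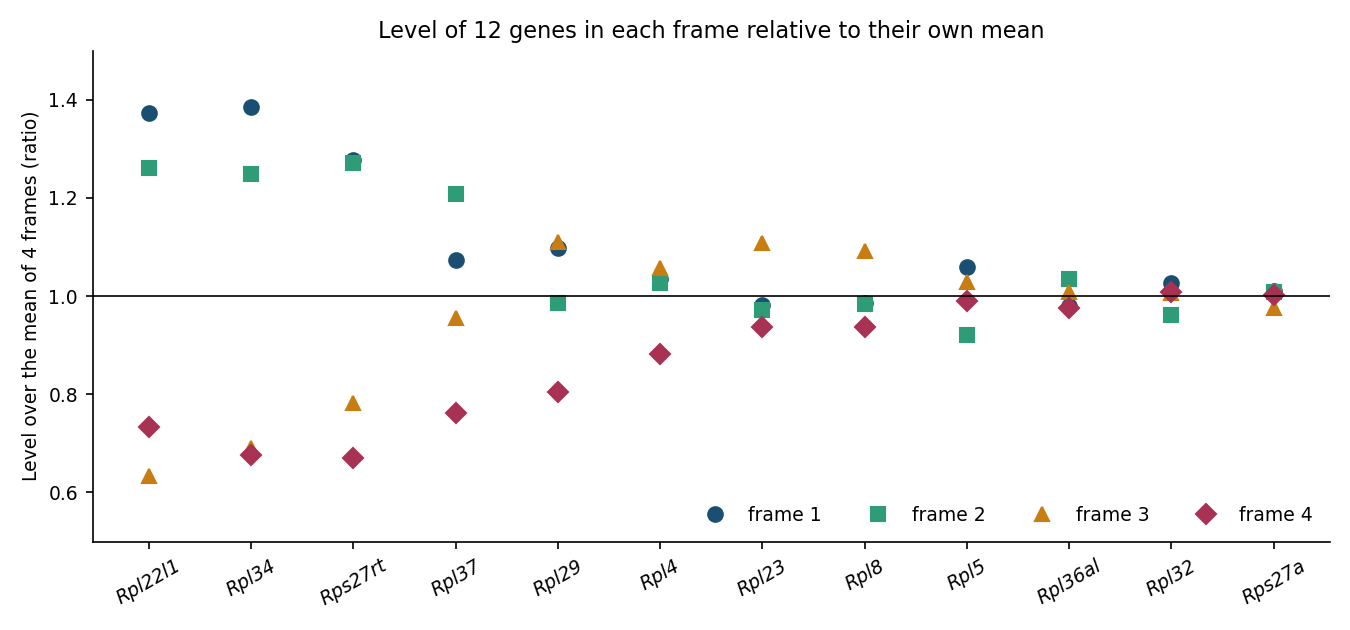
Level of 12 ribosomal protein genes in each frame, as the ratio of the CPM to the gene's own mean over 4 frames. Rpl22l1, Rpl34 and Rps27rt spread widest, with CVs of 37.1%, 37.0% and 32.0%, and Rps27a least, with 1.60%.

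Rpl34 kept this order wherever it was measured in all 4 frames. In the photoreceptor region it had 2933, 2642, 1376 and 1444 CPM, and in the ganglion region 2063, 2243, 1055 and 1103 CPM. In the muscle region it had 2845, 2262, 1691 and 1622 CPM, and in the epithelium region 2940, 3042, 944 and 1208 CPM. Frames 1 and 2 were above frames 3 and 4 in 8 of 8 regions. Among the other members the next was Rpl17, a large subunit gene named after its value was seen, with this order in 6 of 8. The labels give the frames no condition that could be set beside this order. The totals of frames 1 to 4 were 895894, 1066633, 885454 and 674029 UMIs, and the part of depth in this order was not tested. The 8 regions come from the same 4 frames, so they are not separate checks of it.

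The share of UMIs from all 86 genes was compared between regions as values, with no test, since the members were chosen together. In the photoreceptor region, the outer layer of the retina, the share was 8.42%, 8.66%, 8.07% and 7.56% in frames 1 to 4. In the inner retina, which joins the inner nuclear and ganglion regions, it was 6.75%, 6.58%, 6.22% and 5.16%. The inner retina was lower in every frame, and the ranges did not overlap. The difference was -2.0 ± 0.31 percentage points (SD, n = 4 frames), and -1.07 ± 0.21 without Rpl4 and Rpl23. The ganglion region (6.16% ± 0.71) and the inner nuclear region (6.15% ± 0.99) differed by 0.012 ± 0.57 points, less than the spread between frames.

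Inner retina spots were deeper, with a median of 1230.5 UMIs per spot against 740 in the photoreceptor region. In spots of 500 to 1500 UMIs the difference was -1.62 ± 0.34 points and negative in 4 of 4 frames. The marker genes themselves make up part of the total. The 22 photoreceptor markers summed to 82241 to 92907 CPM in the photoreceptor region and to 7767 to 14550 CPM in the inner retina. With all marker genes left out of the total, the mean shares were 9.05% in the photoreceptor region and 6.40% in the inner retina.

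In the regions named by markers from outside the retina, the shares were mostly higher than in neural retina as a whole. The outer coat, which joins the pigmented and fibrous regions, had 8.21%, 8.56%, 8.75% and 7.95%, and neural retina (the inner retina and the photoreceptor region together) had 7.58%, 7.49%, 7.30% and 6.51%. The coat was higher in every frame, by 1.15 ± 0.39 points, and by 0.47 ± 0.12 without Rpl4 and Rpl23. Rpl23 alone was higher by 0.56 ± 0.19 points and Rpl4 by 0.13 ± 0.16.

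Muscle (8.78%, 7.95%, 7.70% and 8.44%) was above neural retina in 4 of 4 frames, by 1.00 ± 0.72 points. Without Rpl4 and Rpl23 the muscle difference was 0.32 ± 0.55 points and positive in 3 of 4, so most of it lay in those 2 genes and the rest did not exceed its spread. Keratin epithelium (8.02%, 8.37%, 9.02% and 7.35%) was above neural retina by 0.97 ± 0.54 points, and by 0.51 ± 0.39 without Rpl4 and Rpl23. The myelin region had 6.49%, 7.34% and 6.15% in frames 2 to 4. Its difference from neural retina was -0.44 ± 0.52 points (n = 3 frames), negative in 2 of 3. Without Rpl4 and Rpl23 it was -0.34 ± 0.084 points and negative in 3 of 3. Neural retina holds both layers of the retina, so the photoreceptor region was also taken as the reference, an alternative added after seeing the data. The coat then differed by 0.19 ± 0.42 points, muscle by 0.035 ± 0.72 and epithelium by 0.010 ± 0.63, each less than its spread between frames. Without Rpl4 and Rpl23 the coat differed by -0.049 ± 0.20 points, lower in 3 of 4 frames. Muscle then differed by -0.19 ± 0.58 and epithelium by -0.0082 ± 0.47, also less than their spread. Myelin differed by -1.44 ± 0.72 points (n = 3 frames), and by -0.87 ± 0.12 without Rpl4 and Rpl23, and was lower in 3 of 3 both times. In every frame the shares of coat, muscle and epithelium lay above the range of the inner retina, 5.16% to 6.75%, and their ranges overlapped that of the photoreceptor region. The epithelium values include frame 2, which had 8 spots, and over the other frames epithelium was above neural retina by 1.00 ± 0.66 points (n = 3). The immune region, which was not among the tested comparisons, had the highest mean share, 9.56% ± 0.94.

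Some of these regions are small or mixed. Muscle held 72 spots, epithelium 59 and myelin 79, against 1883 in neural retina. Myelin markers made up 112727 to 235389 CPM of the myelin region, and with marker genes left out of the total its mean share was 8.32%. Photoreceptor markers were at 39188 to 61892 CPM in the coat, 20464 to 63636 CPM in muscle and 59933 to 66752 CPM in the epithelium region. In neural retina they were at 45397 to 55535 CPM, below the epithelium region and within the ranges of coat and muscle. The epithelium region's own markers summed to 6362 to 15516 CPM, so its spots are named by keratins but held more photoreceptor marker RNA. Pigmented tissue markers were at 5047 to 13150 CPM in muscle, against 1006 to 1899 CPM in neural retina. The part of the photoreceptor and pigmented lists in these shares was not tested.

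**Figure D3:**
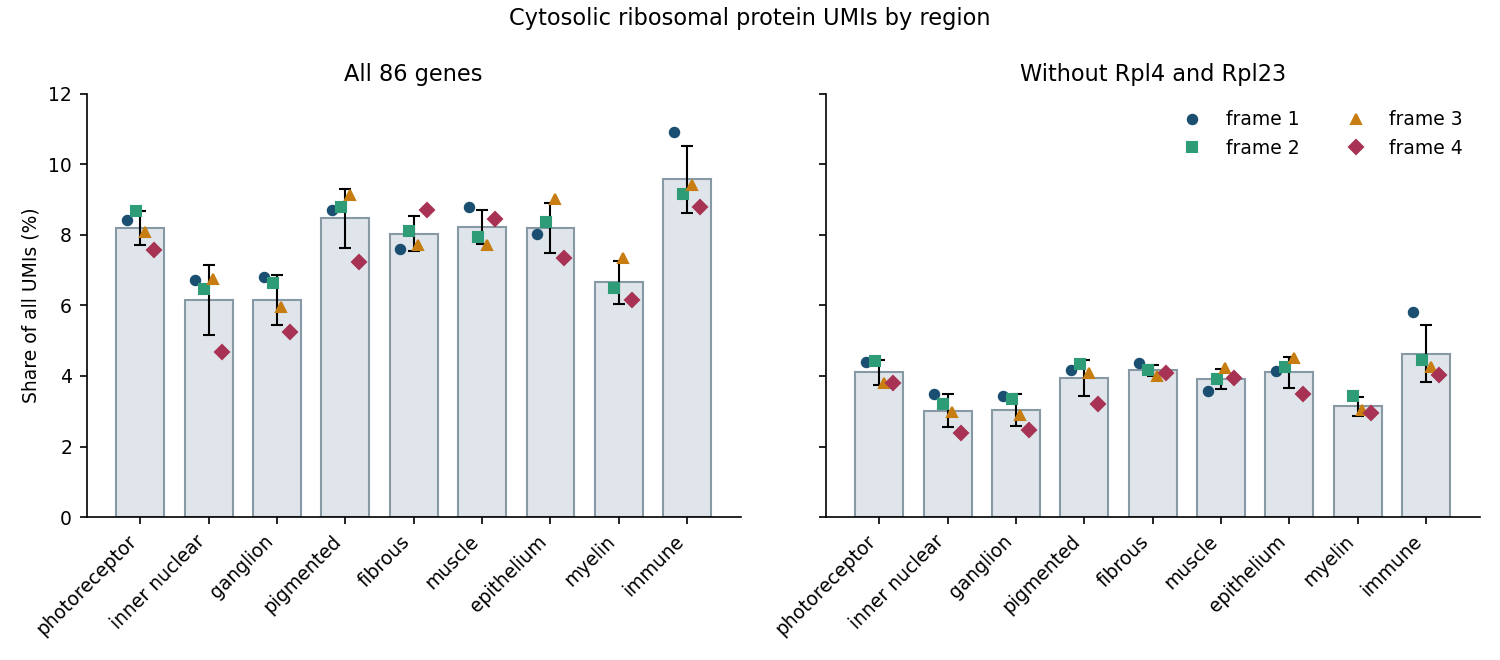
Share of all UMIs (%) from the 86 ribosomal protein genes (left) and from the same genes without Rpl4 and Rpl23 (right) in 9 regions; bars are means over frames, error bars the SD, and points the frames (4, or 3 for myelin). In both panels the inner nuclear, ganglion and myelin regions have the lowest means, with 6.15%, 6.16% and 6.66% on the left.

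Gene by gene, the inner retina had lower levels of most ribosomal protein genes than the photoreceptor region. UMIs were summed per frame and region and all genes were fitted with edgeR's quasi-likelihood test with Benjamini-Hochberg adjustment. Of the 79 members that passed the low-count filter, 53 fell and 0 rose, 29 of 48 with large subunit names and 24 of 31 with small subunit names. Over all 3806 genes tested, 24.1% fell and 27% rose. The median log2 fold was -0.58 over the 79 members and 0.02 over all genes. For 22 members the frames' ranges did not overlap and lay lower in the inner retina, against 16.4% of all genes, and for 0 they lay higher, against 26.4%. The folds ran from -1.42 to 0.21. Without Rpl4 and Rpl23 the count was 51 of 77.

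The scale bears on these folds. They come from a fit with TMM scaling and without the marker genes, while CPM are over all UMIs. An SD beside a fold, here and below, was taken over the frames' separate log2 folds. Those were computed without TMM, so the SD is not a spread around the fitted fold. With totals of all UMIs in place of TMM, the median log2 fold over all genes moved by 0.16, to 0.18, and the median over members was -0.42. On that scale 36 of 79 members fell, against 19.0% of all genes. The distance of the members' median from that of all genes was -0.60 on both scales. A change of totals moves all genes nearly alike, so this distance could hardly change and is no check of the scaling.

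Rpl10a is a large subunit protein that contacts transfer RNA. It had 168, 159, 169 and 83.6 CPM in the inner retina and 385, 370, 313 and 318 CPM in the photoreceptor region. The ranges did not overlap, and it fell with a log2 fold of -1.42 ± 0.42 (SD of the frames' folds; adjusted p = 2.77e-06). Rps2, of the small subunit near the mRNA entry, had 104, 131, 113 and 156 CPM against 261, 216, 252 and 236 CPM and fell by 1.11 on the log2 scale (adjusted p = 0.000143), also without overlap.

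The most abundant members fell too. Rpl4 had 19959, 19572, 19653 and 16771 CPM in the inner retina and 24934, 26601, 26105 and 22123 CPM in the photoreceptor region, a log2 fold of -0.56 ± 0.05 (adjusted p = 7.27e-05). Rpl23 had 12889, 13248, 13204 and 10309 CPM against 15350, 15666, 16507 and 15559 CPM, a log2 fold of -0.52 ± 0.17 (adjusted p = 0.00036). Both fell in every frame without overlap. Rpl8 fell by 0.77 (adjusted p = 5.94e-06) and Rpl29 by 0.59 (adjusted p = 0.000157).

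The stalk proteins did not share one value. Rplp1 had 211, 261, 202 and 190 CPM in the inner retina and 452, 436, 303 and 401 CPM in the photoreceptor region, and it fell by 1.03 (adjusted p = 3.15e-05). Rplp2 had 60.9, 116, 94.1 and 145 CPM against 158, 147, 158 and 140 CPM and fell by 0.74 (adjusted p = 0.0210), with frame 4 of the inner retina inside the other range, and passed in 12 of 17 alternative settings. Rplp0 had 193, 187, 118 and 100 CPM against 143, 172, 118 and 148 CPM, a log2 fold of -0.12 that did not pass (adjusted p = 0.70). The difference between these folds was not tested.

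Among members with further roles, Rps6 had 301, 298, 343 and 351 CPM in the inner retina and 400, 447, 495 and 432 CPM in the photoreceptor region and fell by 0.62 (adjusted p = 0.00191). Rpsa fell by 0.53 (adjusted p = 0.0106) and Rpl11 by 0.61 (adjusted p = 0.00237). Rps27a fell by 0.68 (adjusted p = 0.0151), with frame 3 going the other way. Rpl5, the partner of Rpl11, had 3433, 3232, 3415 and 3022 CPM against 3538, 3555, 3402 and 3886 CPM, a log2 fold of -0.30 (adjusted p = 0.0396). Rpl5 passed in 7 of 17 alternative settings, and its CPM ranges overlapped.

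**Figure D4:**
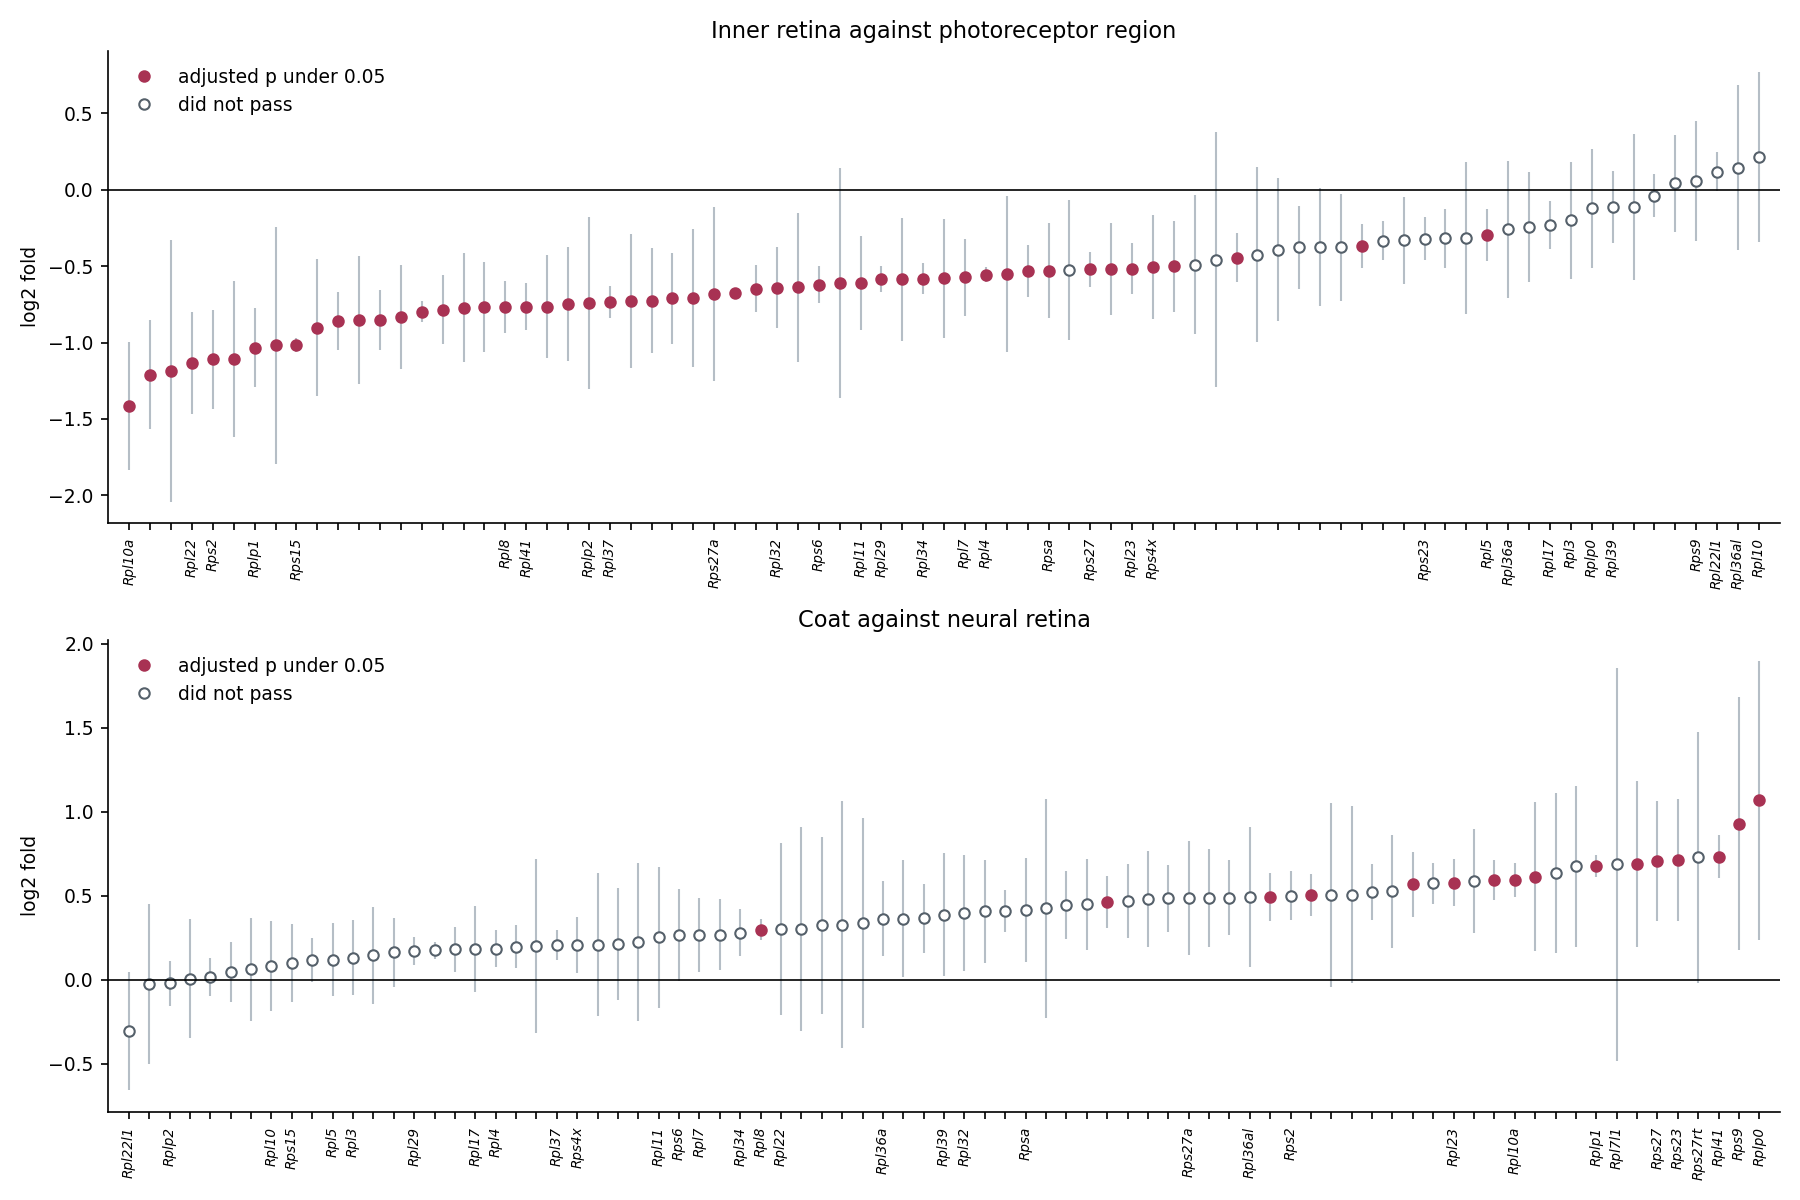
Fitted log2 folds of ribosomal protein genes, inner retina against photoreceptor region (top, 79 genes) and coat against neural retina (bottom, 81 genes), 1 point per gene with the SD of the frames' folds as the line; filled points passed at an adjusted p under 0.05, and the genes named in the text are labelled. At the top 53 genes lie below 0 and passed, and at the bottom 16 lie above 0 and passed. The SD is over the frames' separate folds without TMM, so the lines are not a spread around the fitted points.

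Marker lists of other cells differed between these layers too. The 16 pigmented tissue markers summed to 1378 to 2500 CPM in the photoreceptor region and 530 to 1058 CPM in the inner retina, and 7 of 16 were higher in the photoreceptor region in all 4 frames, with Best1 at 0 there. The 12 immune markers summed to 300 to 410 CPM in the photoreceptor region and 1060 to 2267 CPM in the inner retina, where 6 of 12 were higher in all 4 frames. The 10 vascular markers summed to 140 to 215 CPM in the photoreceptor region and 386 to 480 CPM in the inner retina, where 5 of 10 were higher in all 4 frames. Their part in the ribosomal protein values was not tested.

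Ribosomal proteins outside the name rule fell with the members, 3 of 3. Fau, which encodes the small subunit protein S30 as a fusion, had 222, 267, 151 and 184 CPM in the inner retina and 294, 308, 276 and 349 CPM in the photoreceptor region and fell by 0.73 (adjusted p = 0.00281). Rack1, a scaffold on the small subunit, fell by 0.54 (adjusted p = 0.0228) and passed in 12 of 17 alternative settings. The pseudogene feature Rpl9-ps6, the only 1 of its list that was tested, fell by 1.37 (adjusted p = 0.00408). Of 11 mitochondrial ribosomal protein genes tested, 2 fell, Mrpl49 (-1.39, adjusted p = 0.00421) and Mrpl2 (-0.76, adjusted p = 0.0210, passing in 12 of 17 alternative settings), and 0 rose. That count is not above the 24.1% of all genes that fell.

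Of all genes tested here, 24.1% fell and 27% rose, and the counts of translation factors are read against these shares. Of 9 elongation and termination factors, Eef1a2, the neuronal and muscle form of the factor that brings transfer RNA, rose from 14.7, 18.3, 33.7 and 21.8 CPM in the photoreceptor region to 75.2, 122, 188 and 229 CPM in the inner retina (log2 fold 2.57, adjusted p = 4.7e-07). Eef1a1, the widely expressed counterpart of Eef1a2, had a log2 fold of -0.16 and did not pass (adjusted p = 0.354). Eef2, the translocation factor, fell by 0.42 (adjusted p = 0.0228) and passed in 11 of 17 alternative settings. Of 24 initiation factors, 3 rose and 7 fell, the latter near the share over all genes and the former below it. Eif4a2, an RNA helicase, rose by 1.04 (adjusted p = 8.59e-05) and Eif4g1, a scaffold of the cap complex, by 1.01, while Pabpc1, the poly(A) binding protein, fell by 0.95 (adjusted p = 0.000441).

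Of 10 genes for nascent chain and growth-linked factors, Tpt1, whose mRNA is regulated with those of ribosomal proteins, fell by 0.98 (adjusted p = 2.27e-05) and Eef2k, the kinase of Eef2, rose by 2.08 (adjusted p = 0.00573), with frame 3 going the other way and overlapping ranges. Of 9 ribosome biogenesis genes, Wdr12 rose by 1.17 (adjusted p = 0.000285) and Pes1, its partner in the same complex, fell by 0.90 (adjusted p = 0.000178). These lists were put together with earlier results of these data known.

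In the outer coat a smaller set was higher than in neural retina as a whole. That reference holds the inner retina, where 53 members were lower than in the photoreceptor region. Gene by gene, the coat was not tested against the photoreceptor region alone. The coat's summed share differed from that of the photoreceptor region by 0.19 ± 0.42 points, and by -0.049 ± 0.20 without Rpl4 and Rpl23. Of 81 members tested against neural retina, 16 rose and 0 fell with edgeR's quasi-likelihood test, 10 with large and 6 with small subunit names. Over all 4449 genes 11.5% rose and 10.1% fell. The median log2 fold was 0.39 over the members and -0.02 over all genes. For 15 members the coat's range lay above that of neural retina, against 9.82% of all genes. Without frame 1, frame 2 or frame 3 the count of members that rose was 7 each time, and without frame 4 it was 14. The shares over all genes are not given for these counts, so whether the members still stood apart cannot be read from them. With totals of all UMIs in place of TMM, 8 of 81 members rose, against 9.67% of all genes, and with totals of non-marker UMIs 9 of 81, against 9.82%, so on both scalings the members' share of calls was near that of all genes. With totals of all UMIs the part of all calls that were higher went from 53.1% to 43.1%.

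Rpl23 was the firmest of these. It had 17695, 18619, 22425 and 20316 CPM in the coat and 14104, 14303, 15129 and 13254 CPM in neural retina. All 4 coat values lay above all neural values, and it rose with a log2 fold of 0.58 ± 0.14 (adjusted p = 1.15e-06), which also passed in 16 of 16 alternative settings. Rpl4 had 21700, 24212, 24431 and 22914 CPM against 22415, 22639, 23414 and 19774 CPM, a log2 fold of 0.19 that did not pass (adjusted p = 0.0553). Whether the folds of Rpl4 and Rpl23 differ was not tested.

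Rplp0 had the largest fold, from 325, 294, 387 and 98.4 CPM in the coat and 169, 181, 118 and 127 CPM in neural retina. It was higher in frames 1 to 3 and lower in frame 4. Its fitted log2 fold was 1.07 (adjusted p = 0.00253), and the frames' separate folds had an SD of 0.83. Rps9, of the small subunit, had 395, 368, 272 and 118 CPM against 239, 142, 153 and 164 CPM. It was likewise lower in frame 4. Its fitted log2 fold was 0.93 (adjusted p = 0.00545), and the frames' separate folds had an SD of 0.75. Rplp0 passed in 14 and Rps9 in 12 of 17 alternative settings. The coat of frame 4 had 60 spots, against 112 to 215 in the other frames.

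Other members rose in all 4 frames. Rplp1 had 492, 465, 399 and 473 CPM in the coat against 330, 337, 261 and 308 CPM, a log2 fold of 0.68 ± 0.07 (adjusted p = 0.00343). Rpl41, a very short basic protein, had 422, 421, 382 and 394 CPM against 286, 285, 255 and 223 CPM, a log2 fold of 0.73 ± 0.13 (adjusted p = 0.00308). Rps23, which lies at the decoding center, had 378, 425, 347 and 394 CPM against 303, 321, 210 and 179 CPM, a log2 fold of 0.71 ± 0.36 (adjusted p = 0.00625). For each of these 3 the coat values all lay above the neural ones. Rplp1 passed in 14 of 17 alternative settings, Rpl41 in 13 and Rps23 in 12. Rps27 rose by 0.71 (adjusted p = 0.0212), with frame 4 slightly lower, and passed in 5 of 17 alternative settings. Rplp2, the third stalk protein, had a log2 fold of -0.02 (adjusted p = 0.98).

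Beside the members, 0 of 3 ribosomal proteins outside the name rule passed in the coat, and 0 of 25 mitochondrial ones. Eef1d, an exchange factor for elongation, rose by 0.77 (adjusted p = 0.000151) and Tpt1 by 0.67 (adjusted p = 0.00232). Eef1a2 fell by 3.66 (adjusted p = 0.000133), from 45.3, 76.8, 98.1 and 113 CPM in neural retina to 17.6, 4.38, 0 and 0 CPM. Eif4a2 fell by 0.97 (adjusted p = 0.00565), Eif4g3 by 0.58 (adjusted p = 0.00954) and Wdr12 by 1.05 (adjusted p = 0.0144). Of these, Eif4g3 passed in 11 and Wdr12 in 12 of 17 alternative settings. The immune markers summed to 1752 to 5285 CPM in the coat and 729 to 1165 CPM in neural retina, with 8 of 12 higher in all 4 frames. The vascular list had 4 of 10 higher in all 4, and the part of either was not tested.

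Muscle and keratin epithelium gave no calls among the members. For muscle 0 of 79 members passed with edgeR's quasi-likelihood test and 0 with DESeq2, 0 had an unadjusted p under 0.05, while 1.99% of all 3113 genes passed, 1.35% higher and 0.642% lower. For epithelium, over frames 1, 3 and 4, the figures were 0 of 79, 0 with DESeq2 and 0 unadjusted, while 1.74% of 3284 genes passed, 0.944% higher and 0.792% lower. On simulated counts of the same depth, 72 of 170 genes changed 4-fold were recovered for muscle and 93 of 195 for epithelium, so many differences of that size were not detectable. The simulation used 1 fixed spread for all genes and no difference between frames. Its changed genes were drawn from all well counted genes, so it gives no detection limit for the members themselves. The median fold over members was -0.17 in muscle and -0.12 in epithelium, against -0.54 and -0.44 over all genes. With totals of all UMIs in place of TMM these medians were 0.081 and 0.14, against -0.28 and -0.19 over all genes, so their sign turns with the scaling. The 4 comparisons with neural retina share its libraries.

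In the myelin region, 1 of 79 members passed in frames 2 to 4 with edgeR's quasi-likelihood test, and it was lower. Of all 3043 genes 9.69% passed, 5.23% lower and 4.47% higher. That call was lost without frame 3, without frame 4, and with regions drawn from 50% of the UMIs. The median fold over members was -0.71, against -1.16 over all genes; on totals of all UMIs these were -0.34 and -0.85. Simulated 4-fold changes were recovered for 35 of 192 genes at this depth. No gene tested from the other translation and ribosome lists passed in muscle, epithelium or myelin.

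Paralogs were compared as shares of their pair. Rpl22l1 was 42.9%, 44.1%, 30.8% and 36.7% of the Rpl22 plus Rpl22l1 UMIs in the photoreceptor region, and 67.6%, 60.4%, 49.1% and 63.8% in the inner retina. The share was higher in the inner retina in 4 of 4 frames, by 21.6 ± 5.1 percentage points. The exact permutation test over frames gave a two-sided p of 0.125, the smallest that 4 frames allow, and 0.75 after Benjamini-Hochberg adjustment over the 12 pair differences computed. By gene, Rpl22 had 129, 179, 127 and 94.8 CPM in the inner retina and 323, 260, 242 and 218 CPM in the photoreceptor region, and it fell by 1.13 on the log2 scale without overlap (adjusted p = 9.97e-05). Rpl22l1 had 269, 272, 122 and 167 CPM against 242, 205, 108 and 127 CPM, a log2 fold of 0.12 that did not pass (adjusted p = 0.667).

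In the coat Rpl22l1 was 40.0% ± 12.3 of the pair, and its difference from neural retina, -7.52 ± 12.4 points, was within the spread (exact permutation p = 0.375, adjusted 0.75). For Rpl36al within its pair with Rpl36a the inner retina and photoreceptor region differed by 7.21 ± 6.75 points (exact permutation p = 0.25, adjusted 0.75). Of the other partners tested between the layers, Rpl7 fell by 0.57 (adjusted p = 0.00221), Rps4x by 0.50 (adjusted p = 0.0190, with frame 1 going the other way, passing in 12 of 17) and Rps27 by 0.52 (adjusted p = 0.0426, passing in 7 of 17 alternative settings). Rpl3 (-0.20), Rpl36a (-0.26), Rpl39 (-0.12), Rpl10 (0.21) and Rpl36al (0.15) did not pass.

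**Figure D5:**
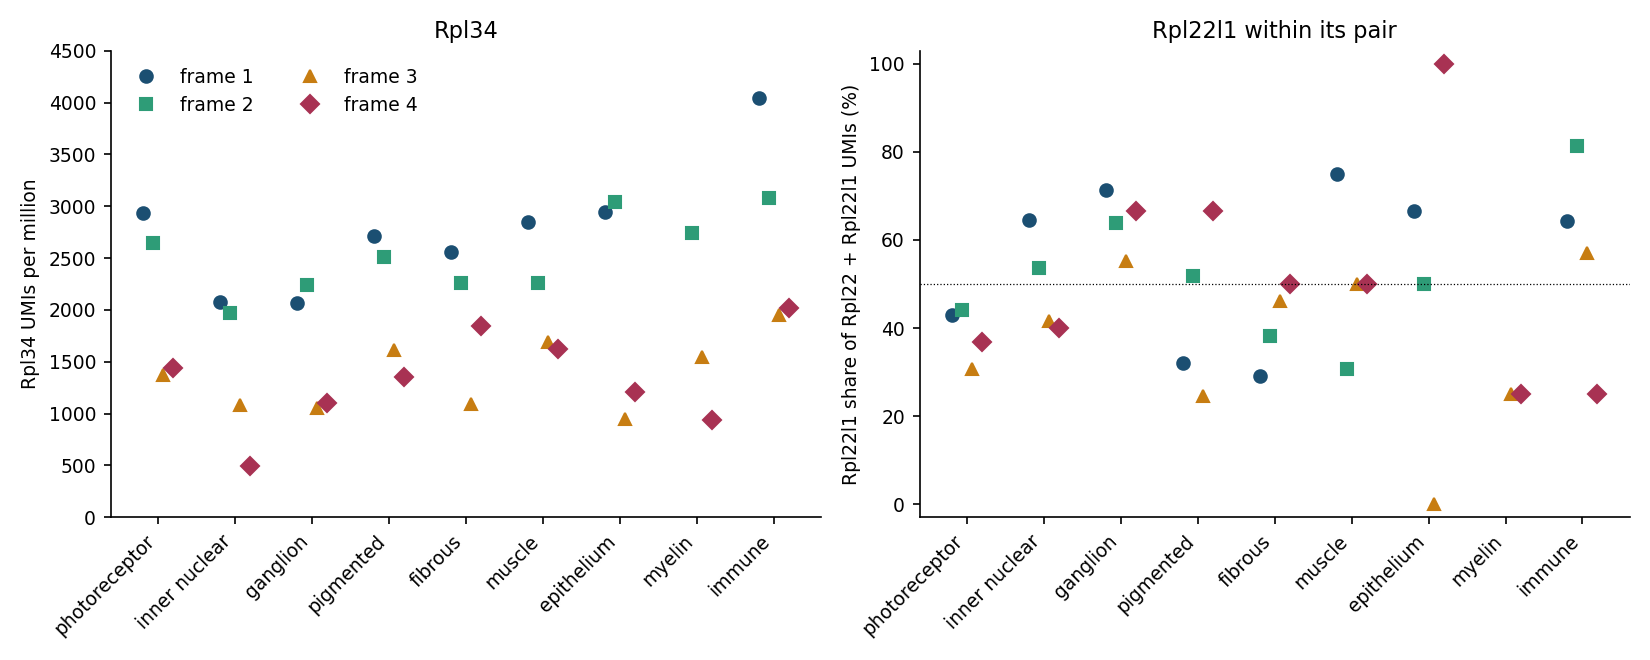
Left, Rpl34 in CPM by region and frame; frames 1 and 2 lie above frames 3 and 4 in each of the 8 regions measured in all 4 frames. Right, the share (%) of Rpl22l1 in the summed UMIs of Rpl22 and Rpl22l1, with a dotted line at 50%; the photoreceptor points lie between 30.8% and 44.1%, and the muscle, epithelium and myelin points rest on at most 15 UMIs of either gene.

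Rpl3l, the muscle paralog of Rpl3, was counted 5 times. The 72 muscle spots gave 4 UMIs, 0, 1, 1 and 2 in frames 1 to 4, which is 70.7 CPM with an exact Poisson 95% interval of 19.3 to 181 CPM. Neural retina gave 0 UMIs of 2095449. The muscle value was 49.4 times a floor of 3 UMIs there, 1.43 CPM. That ratio is a point value and leaves out the counting error of the 4 muscle UMIs. Epithelium and myelin also gave 0 UMIs, of 52526 and 40394. The same ratio was 1.24 and 0.952 for them, so their levels could not be told apart from that of muscle. The remaining UMI was in the coat of frame 3. In muscle Rpl3 itself had 14 UMIs.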

How the data were processed

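The authors deposited counts as whole numbers of UMIs per gene and spot, and the file headers name Space Ranger 2.0.0; the build is mm10 per the submitters' processing notes, and how reads matching several genes were handled is not given in the sources used here. Spots with at least 20 UMIs over 165 marker genes were clustered (10 principal components, 15 neighbours, Leiden resolution 0.6, scanpy 1.11.5), and a cluster took the class holding most, and at least 3, of its 10 leading markers; 1760 spots stayed unplaced. UMIs were summed per frame and region, and the gene tests used frames with at least 10 spots in both regions. Regions were drawn from, and compared in, the same spots. Library sizes and tests did not include the marker genes. All genes passing filterByExpr (minimum count 10) were fitted with edgeR 4.0.16 (TMM, robust quasi-likelihood test, Benjamini-Hochberg limit 0.05) in R 4.3.3, with the frame as replicate block because both regions lie on the same frame. Paired residuals correlated by 0.0040 to 0.14. The script was tested on simulated data. DESeq2 1.42.0, other clusterings, filters, scalings and each frame left out were alternatives.

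The members, lists and regions were chosen with earlier results of these data known. Named genes are Rpl4 and Rpl23, the 5 members with most and the 5 with fewest UMIs, the 3 with highest and 3 with lowest CV, the 5 largest folds each way per comparison, the paralogs and partners, the stalk and landmark members, and up to 3 passing genes per list. Some members and list genes that this rule takes in are not reported here.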

Additional observations from a re-analysis of the deposited data

Results flagged for a closer look

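With 4 frames per value, Dixon's gap over the range was taken for 49 values, where chance would put about 1 in 20 past the 95% critical value. It was 0.867 for the share of all members in the inner nuclear region, where frame 4 had 4.67% against 6.71%, 6.47% and 6.74% in frames 1 to 3, and frame 4 held 24 of the 279 spots of that region. It was 0.934 for Rpl10 over all spots, which had 119, 117, 120 and 81.6 CPM, again with frame 4 apart.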

How the results depend on the processing

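Members that fell in the inner retina numbered 36 to 56 over the 17 alternatives against 53, within 1.5 times, and 26 genes, apart from Rpl4 and Rpl23, were called in every setting. Without a replicate block they numbered 45. For the coat, against 16 members higher, there were 8 with DESeq2, 2 with no low-count filter, 9 with k-means, 2 at 50 panel UMIs, 9 with regions from 50% of the UMIs, 15 with no replicate block, 22 at Leiden resolution 1, 19 at 10 panel UMIs, and, added after seeing the data, 9 with no TMM and 8 with totals of all UMIs; leaving out a frame gave 7 to 14, and apart from Rpl23 0 genes were called in every setting. With no low-count filter 1 member rose and 1 fell in muscle, and 2 fell in epithelium. For myelin, against 1 lower, 2 fell with no low-count filter, 2 with no replicate block, 3 at 10 panel UMIs and 0 with regions from 50% of the UMIs; 0 to 1 fell with a frame left out, and 1 rose with no TMM. Apart from the scalings, shares over all genes are not given for these settings, so the counts show only how far the calls moved. The cause was not tested.

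Mean shares without Rpl4 and Rpl23 were 4.11% (photoreceptor), 3.04% (inner retina), 4.06% (coat), 3.91% (muscle), 4.10% (epithelium) and 3.14% (myelin), and with marker genes out of the total 9.05%, 9.08% (coat), 8.99% (muscle), 8.96% (epithelium) and 8.32% (myelin). K-means gave 7.61% for muscle and 9.89% for epithelium, 50 panel UMIs gave 7.34% and spots of 500 to 1500 UMIs 7.47% for muscle. These values rest on few spots, with 33 in muscle and 21 in epithelium for k-means and 12 in muscle at 50 panel UMIs. The muscle value for 500 to 1500 UMIs is from frames 2 and 3 only, with 12 and 10 spots. Leaving out a frame gave 8.02 to 8.39% (photoreceptor), 5.99 to 6.51% (inner retina), 8.24 to 8.51% (coat), 8.03 to 8.39% (muscle), 7.91 to 8.47% (epithelium) and 6.32 to 6.91% (myelin). Members with a CV over 20% numbered 16, 9 on shares of ribosomal protein UMIs, and 10 to 24 with a frame left out, 10 without frame 4. Depth limits muscle, epithelium and myelin most, with 56581, 52526 and 40394 UMIs.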
